A study of Mus musculus with 5 samples.

Results

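The aminoacyl tRNA synthetases were described across 5 groups of mouse livers. The members were all 36 listed synthetase genes whose name occurs on the array, of 36870 gene names in all. They were 20 cytosolic enzymes and 16 mitochondrial enzymes, whose gene names end in 2, and the rule that picks them uses names and no measured value. The mice were 6-week-old female BALB/c animals, and livers were taken 6 hr after intraperitoneal dosing. The groups were TGZ (troglitazone) at 300 mg/kg, BSO (buthionine sulfoximine) at 700 mg/kg plus TGZ at 300 mg/kg, RGZ (rosiglitazone) at 300 mg/kg, BSO at 700 mg/kg plus RGZ at 300 mg/kg, and vehicle. Equal amounts of RNA from 6 animals were pooled per group and hybridised to 1 array. There was thus no replicate, no difference was tested, and every value describes 1 pool. No group received BSO alone, so an effect of BSO can be read only on top of a compound.

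An aminoacyl tRNA synthetase joins its amino acid to the matching tRNA, the step that fixes the genetic code before the ribosome reads a message. Most amino acids have their own enzyme in the cytosol and a separate, nucleus-encoded enzyme for mitochondria. The glycyl enzyme Gars and the lysyl enzyme Kars serve both compartments from a single gene. The enzymes fall into class I and class II by the fold of their catalytic core, and several cytosolic ones sit together in the multisynthetase complex. Many cytosolic synthetase genes are targets of ATF4, the transcription factor that is translated when the kinases of the integrated stress response phosphorylate eIF2 alpha. TGZ and RGZ are both thiazolidinedione ligands of PPAR gamma. TGZ carries a chroman group resembling that of vitamin E, where RGZ has an aminopyridine tail. BSO blocks glutathione synthesis.

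ATF4 binds with C/EBP partners at a composite element whose core was searched as TGATGNAA on both strands, and the promoters that held it are shown because the ATF4 genes and the synthetases are set side by side further on. RefSeq promoters (GRCm38.p6, 250 bases before to 50 bases after the start) were at hand for 27 members, 13 cytosolic and 14 mitochondrial. The core occurred in 5 of 13 cytosolic promoters, which is 38.5%, in 0 of 14 mitochondrial promoters, and in 3.97% of all 32851 promoters of the table. The genes were Aars, Gars, Iars, Tars and Yars, and the capitals mark the core as it reads along the gene's strand, TGATGNAA or its reverse complement. Aars held it at 2 places.
Aars, chr8:111033592-111033891, plus strand: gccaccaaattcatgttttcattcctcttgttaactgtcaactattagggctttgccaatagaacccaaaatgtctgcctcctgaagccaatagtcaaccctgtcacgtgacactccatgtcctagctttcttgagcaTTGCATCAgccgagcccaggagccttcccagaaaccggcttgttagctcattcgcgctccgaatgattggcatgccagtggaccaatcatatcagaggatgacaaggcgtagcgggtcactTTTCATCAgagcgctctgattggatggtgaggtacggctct
Gars, chr6:55037751-55038050, plus strand: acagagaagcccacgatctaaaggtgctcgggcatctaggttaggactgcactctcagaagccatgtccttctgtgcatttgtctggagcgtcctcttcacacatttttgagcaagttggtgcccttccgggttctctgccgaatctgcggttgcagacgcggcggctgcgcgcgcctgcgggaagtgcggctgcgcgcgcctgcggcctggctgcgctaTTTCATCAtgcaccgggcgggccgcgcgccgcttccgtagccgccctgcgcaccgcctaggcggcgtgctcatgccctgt
Iars, chr13:49681880-49682179, plus strand: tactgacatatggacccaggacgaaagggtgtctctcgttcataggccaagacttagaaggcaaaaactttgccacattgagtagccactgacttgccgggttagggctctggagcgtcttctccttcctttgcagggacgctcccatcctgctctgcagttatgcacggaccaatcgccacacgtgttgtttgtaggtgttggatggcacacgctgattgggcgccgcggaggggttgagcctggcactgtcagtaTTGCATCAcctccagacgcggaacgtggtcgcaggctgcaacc
Tars, chr15:11399609-11399908, minus strand: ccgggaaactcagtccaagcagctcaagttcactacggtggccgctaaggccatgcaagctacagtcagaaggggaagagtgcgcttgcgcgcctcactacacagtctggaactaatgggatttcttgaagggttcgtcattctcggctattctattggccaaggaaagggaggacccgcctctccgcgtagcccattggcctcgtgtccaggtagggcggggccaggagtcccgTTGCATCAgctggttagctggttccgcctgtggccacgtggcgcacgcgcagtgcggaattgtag
Yars, chr4:129189653-129189952, plus strand: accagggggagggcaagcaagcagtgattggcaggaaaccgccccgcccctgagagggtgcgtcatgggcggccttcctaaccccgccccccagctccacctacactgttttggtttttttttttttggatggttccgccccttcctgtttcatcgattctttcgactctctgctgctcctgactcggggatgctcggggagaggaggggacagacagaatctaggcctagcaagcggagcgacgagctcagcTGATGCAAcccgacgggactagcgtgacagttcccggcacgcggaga
Counted from the start, with the start as base 1, the core lay at -112 to -105 and at 10 to 17 in Aars and at -30 to -23 in Gars. It lay at 8 to 15 in Iars, at -15 to -8 in Tars and at 4 to 11 in Yars. The E-box CACGTG occurred in 4 of 13 cytosolic promoters (Aars, Farsb, Iars and Tars), in 1 of 14 mitochondrial promoters (Ears2) and in 7.15% of all. The antioxidant response element core TGACNNNGC occurred in 3 of 13, in 3 of 14 and in 12.4% of all. The cyclic AMP response element TGACGTCA was in 0 of 13, in 0 of 14 and in 1.79% of all. The first promoter listed for each member was taken, where the shares over all count every listed promoter. For Aars and Yars the start used lies inside the gene's RefSeq span, which begins at 111027778 for Aars and at 129189734 for Yars. These are matches of letters in a window and do not show binding.

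The arrays were read in 56605 probes each, of which 51.9% to 55.1% were well above background. Signals were divided by the 75th percentile of each array's non-control probes, and a scaled signal below has that percentile at 100. A difference is the difference of log2 scaled signals, with an SD of about 0.20 from the spot errors that the scanner software reports. A typical 95% measurement interval therefore spans a factor of 1.32 either way. It is the error that the software reports for a spot and does not cover animals, pools or labelling. The SD hardly varied over the members, from 0.204 for Aars to 0.213 for Nars2 with TGZ against vehicle. A count of members with an interval clear of 0 is thus close to a count past 1.32-fold. Scaling on spike-in RNA instead lowered the median of all genes to -0.44 with TGZ, so the differences are relative to the other genes of the array. Hepatocyte markers such as Alb and Ttr were among the bright signals of every array, with list medians of the hepatocyte markers between -0.20 and 0.32 against vehicle. The summed scaled signal of 10 neutrophil markers was 113339 with TGZ, 93959 with BSO plus TGZ, 41337 with RGZ and 71742 with BSO plus RGZ, against 13538 with vehicle. Lcn2, which hepatocytes also express when inflamed, made up most of the rise, and without it the sums of the other 9 were 27536 with TGZ, 27751 with BSO plus TGZ, 13976 with RGZ and 14678 with BSO plus RGZ, against 12574 with vehicle. Within that list Ly6g was not higher in any group than in vehicle, and 9 of 10 were above vehicle with TGZ. Erythroid markers were lower in both RGZ pools, with 4 of 4 intervals below 0 and medians of -0.85 with RGZ and -0.74 with BSO plus RGZ, beside 10.7% and 17.5% of all genes with an interval below 0. Of 7 stellate and fibroblast markers, 5 with RGZ and 4 with BSO plus RGZ had an interval below 0. In pooled tissue a change in cell make-up and a change of RNA per cell cannot be told apart, and the part of these markers in the values below was not tested.

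Of the 36 members, 35 had a value on every array. The exception was Mars2, the mitochondrial methionyl enzyme, which was not well above background on any array. The members were printed as 86 probes, 75 of them above background on all 5 arrays, and each gene was represented by its brightest probe. The spread over the 5 pools was small. The highest over the lowest of the 5 scaled signals had a median of 1.42 over the 20 cytosolic genes and of 1.44 over the 15 mitochondrial genes, beside 1.57 over all 18483 genes above background on every array. A ratio of at least 2 was reached by 0 of 20 cytosolic and 1 of 15 mitochondrial genes, and by 27.1% of all those genes.

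**Figure D1:**
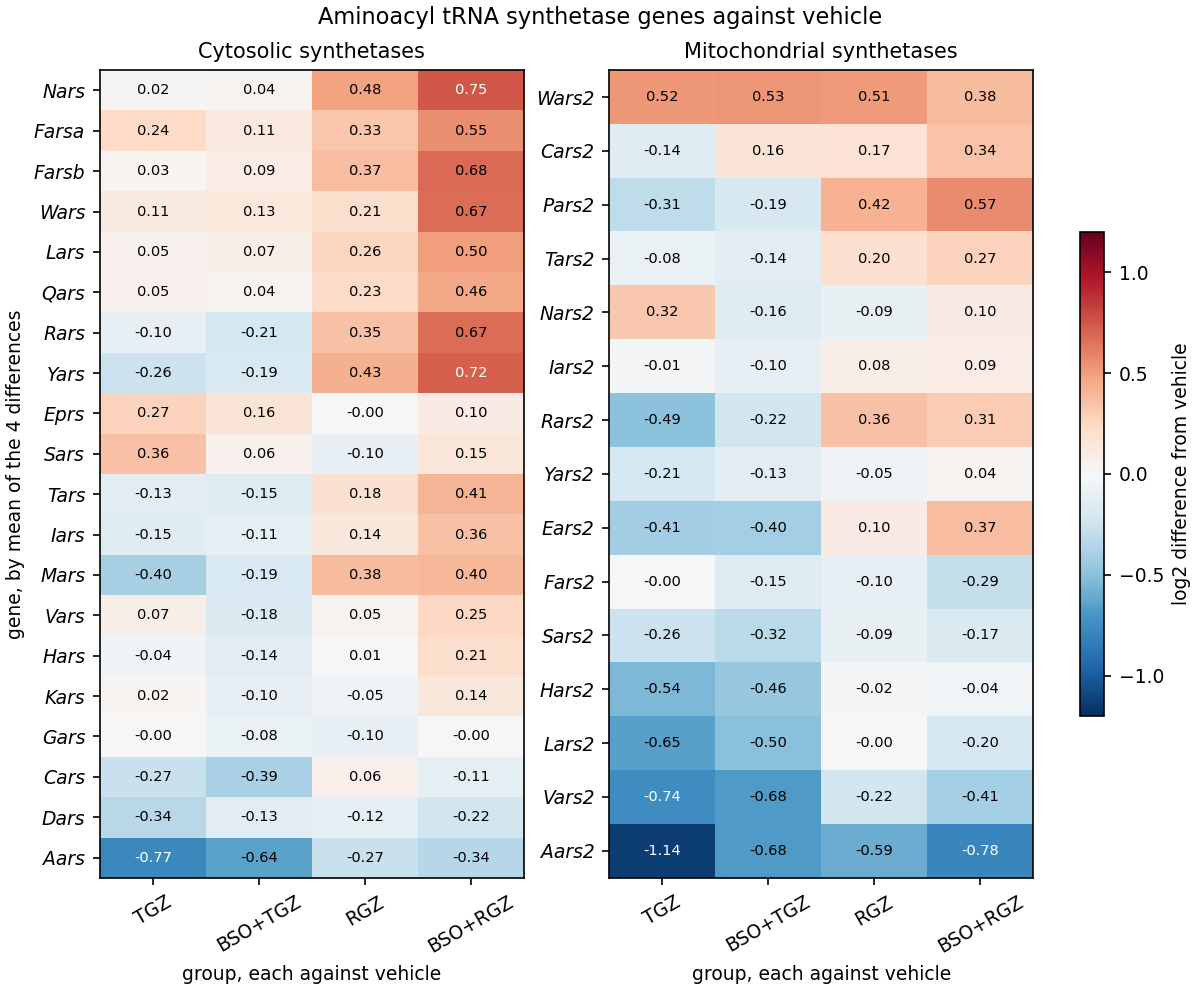
Log2 difference from vehicle of each synthetase gene (rows, sorted by the mean of the 4 differences) in the TGZ, BSO plus TGZ, RGZ and BSO plus RGZ pools (columns), 1 array per group. Red is higher and blue is lower than vehicle, and the number in each cell is the difference. The right-hand column of the cytosolic panel is mostly red, with Nars at 0.75, and the left columns of the mitochondrial panel are mostly blue, with Aars2 at -1.14.

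Against vehicle, TGZ left the cytosolic synthetases centred on 0. The median log2 difference was 0.01 over 20 genes, with 10 above and 10 below 0, beside 0.02 over all genes. With spike-in scaling both medians moved down together, to -0.45 and -0.44. None was past 2-fold, where 10.1% of all genes were higher and 9.52% were lower by that much. The extremes were Aars, the alanyl enzyme, and Sars, the seryl enzyme. Sars had a scaled signal of 2594 with TGZ, 2107 with BSO plus TGZ, 1894 with RGZ and 2247 with BSO plus RGZ, against 2027 with vehicle. Its TGZ value was the highest of the 5 and stood 1.28-fold above vehicle, with a measurement interval of 0.97 to 1.69 that includes no change.

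Aars had the lowest difference of the cytosolic set with TGZ. Its probe lies at chr8:113579376-113579434 (mm9, plus strand) and read 4683 with TGZ, 5119 with BSO plus TGZ, 6634 with RGZ and 6303 with BSO plus RGZ, against 7984 with vehicle. Both TGZ pools were the lowest, both RGZ pools were between them and vehicle, and vehicle was the highest. The difference from vehicle was -0.77 with TGZ, 1.70-fold lower with an interval of 1.29 to 2.25, and -0.64 with BSO plus TGZ. It was the only cytosolic gene at least 1.5-fold lower in either TGZ pool, where 19% of all genes were so with TGZ and 15.4% with BSO plus TGZ. Averaging all Aars probes that were above background on any array turned both differences to 0.34 and 0.43. The other probes in that average had scaled signals between 5.4 and 16.1 and are annotated to other transcripts.

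The mitochondrial synthetases were mostly lower in the TGZ pools than in vehicle. Of 15 genes, 13 were below 0 in each TGZ pool, where 48.9% and 52.3% of all genes were below 0. The median was -0.26 with TGZ and -0.19 with BSO plus TGZ, beside 0.02 and -0.03 over all genes. The measurement interval lay below 0 for 6 of 15 genes with TGZ, a share of 40%, beside 22.1% of all genes. Those genes were Aars2, Ears2, Hars2, Lars2, Rars2 and Vars2, which charge alanine, glutamate, histidine, leucine, arginine and valine in mitochondria.

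At least 2-fold from vehicle were 19.6% of all genes with TGZ, 14.2% with BSO plus TGZ, 3.32% with RGZ and 6.83% with BSO plus RGZ. Among the synthetases only Aars2 was that far from vehicle in any group, with the scaling and representing probes used here. Its probe lies at chr17:45657547-45657606 (mm9, plus strand) and read 68.9 with TGZ, 94.96 with BSO plus TGZ, 100.4 with RGZ and 88.2 with BSO plus RGZ, against 152 with vehicle. All 4 treated pools were below vehicle, and TGZ was the lowest. The TGZ difference was -1.14, 2.20-fold lower with an interval of 1.66 to 2.92, and normexp background correction brought it to -0.82, short of 2-fold. The differences were -0.68 with BSO plus TGZ, -0.59 with RGZ and -0.78 with BSO plus RGZ, each at least 1.5-fold. At least 1.5-fold lower were 19% of all genes with TGZ, 15.4% with BSO plus TGZ, 7.58% with RGZ and 12.9% with BSO plus RGZ. The alanyl pair Aars and Aars2 were thus both lower than vehicle in all 4 pools. With spike-in scaling 1 cytosolic and 3 mitochondrial synthetases were past 2-fold lower with TGZ, and averaging probes put 1 cytosolic gene past 2-fold higher with BSO plus RGZ. Spike-in scaling also lowered the median of all genes, and shares of all genes past 2-fold are not given for these alternatives.

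Vars2, the mitochondrial valyl enzyme, read 90.5 with TGZ, 94.5 with BSO plus TGZ, 130 with RGZ and 114 with BSO plus RGZ, against 151 with vehicle. The TGZ pools were again the lowest, at -0.74 and -0.68. Lars2, the leucyl enzyme, read 248 with TGZ, 275 with BSO plus TGZ, 389 with RGZ and 339 with BSO plus RGZ, against 389 with vehicle. RGZ and vehicle had the same Lars2 signal to 3 digits, and TGZ was 1.57-fold lower. The second Lars2 probe read 208 with TGZ and 204 with vehicle, so the probes of Lars2 disagree, and averaging them gave -0.31 in place of -0.65.

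Wars2, the tryptophanyl enzyme of mitochondria, ran the other way. It read 65.6 with TGZ, 65.8 with BSO plus TGZ, 65.0 with RGZ and 59.5 with BSO plus RGZ, against 45.7 with vehicle. For that probe the 4 treated pools lay close together and above vehicle, with differences between 0.38 and 0.53. A second, dimmer Wars2 probe read 12.9 with TGZ, 8.90 with BSO plus TGZ, 9.46 with RGZ and 10.9 with BSO plus RGZ, against 9.44 with vehicle, so it did not show all 4 pools above vehicle. Nars2, the asparaginyl enzyme, was the only other mitochondrial gene above 0 with TGZ, at 0.32, and its second probe was at -0.30. The probes that represent Wars2 and Nars2 are dim, with a wider error, an SD of 0.21 each.

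**Figure D2:**
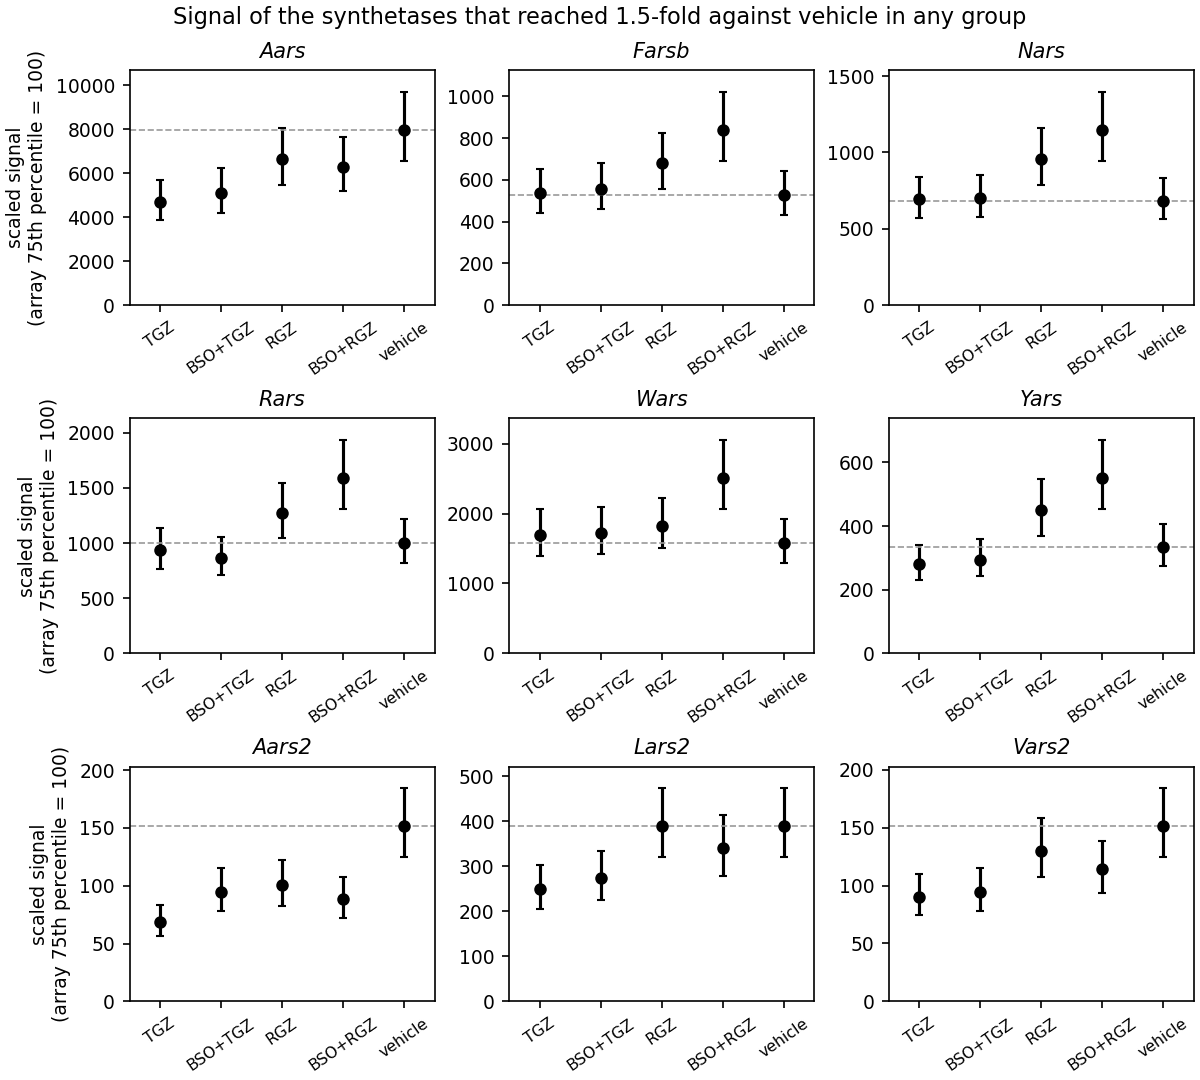
Scaled signal (array 75th percentile at 100, linear axis from 0) of the 9 synthetases that reached 1.5-fold against vehicle in any group, in the TGZ, BSO plus TGZ, RGZ, BSO plus RGZ and vehicle pools. Points are the values of single arrays, bars are 95% intervals from the array's median spot error over the members, and the dashed line is the vehicle value. Aars2 lies below vehicle in all 4 treated pools, and Farsb, Nars, Rars, Wars and Yars peak in BSO plus RGZ.

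The partners of mitochondrial charging were also below vehicle in the TGZ pools. All 8 genes of a list of these partners and of mitochondrial elongation factors were below 0 in both TGZ pools (medians -0.32 and -0.43), beside 48.9% and 52.3% of all genes. With TGZ 2 of the 8 had a measurement interval below 0, which is 25%, beside 22.1% of all genes. With BSO plus TGZ 5 of the 8 did, which is 62.5%, beside 19.9% of all genes. Gatc, a subunit of the amidotransferase that makes glutaminyl tRNA in mitochondria, read 31.0 with TGZ, 46.6 with BSO plus TGZ, 79.5 with RGZ and 77.9 with BSO plus RGZ, against 76.6 with vehicle. Only the TGZ pools stood apart, at -1.30 and -0.72. Mtfmt, which formylates the initiator methionyl tRNA, differed by -0.71 with TGZ, by -0.53 with BSO plus TGZ, by 0.34 with RGZ and by 0.41 with BSO plus RGZ. Both genes that turn seryl tRNA into selenocysteinyl tRNA were below vehicle in the TGZ pools too, and less so in the RGZ pools. Pstk, the kinase of the pathway, differed by -1.24 with TGZ, -0.94 with BSO plus TGZ, -0.23 with RGZ and -0.30 with BSO plus RGZ. Sepsecs, which completes it, differed by -1.04, -0.9996, -0.49 and -0.32 in the same order of pools. Both had a measurement interval below 0 in each TGZ pool, beside 22.1% and 19.9% of all genes. With RGZ only Sepsecs did, beside 10.7% of all genes. With BSO plus RGZ neither did, beside 17.5%.

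RGZ alone gave small differences among cytosolic synthetases, more of them above 0 than below. The median was 0.16 over 20 genes with 14 above 0, beside a median of -0.03 and 45.5% above 0 over all genes. None was at least 1.5-fold higher, against 5.98% of all genes, or at least 2-fold higher, against 1.66%. The largest was Nars, the asparaginyl enzyme, at 0.48, and the lowest was Aars at -0.27. The 15 mitochondrial genes had a median of 0.00 to 2 decimals, with 7 above and 8 below 0, from Aars2 at -0.59 to Wars2 at 0.51.

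With BSO plus RGZ the cytosolic synthetases were higher as a set than in any other pool. The median was 0.38, with 16 of 20 genes above 0, beside a median of -0.05 and 45.8% above 0 over all genes. BSO plus RGZ gave the highest of the 5 signals for 14 of 20 cytosolic genes and for 6 of 15 mitochondrial genes. Vehicle gave it for 3 of 20 and for 6 of 15. The share of all genes that peaked in each pool was not counted. At least 1.5-fold higher were 5 of 20, beside 9.83% of all genes, and the interval lay above 0 for 9 of 20, beside 14.3% of all genes. None reached 2-fold, against 3.05% of all genes.

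Those 5 were Nars, Yars, Farsb, Wars and Rars. Nars read 692 with TGZ, 702 with BSO plus TGZ, 956 with RGZ and 1149 with BSO plus RGZ, against 684 with vehicle. The TGZ pools matched vehicle to within 1.03-fold, RGZ was above them, and BSO plus RGZ was 1.68-fold above vehicle with an interval of 1.27 to 2.22. Yars, the tyrosyl enzyme, has its probe at chr4:128896047-128896106 (mm9, plus strand) and read 280 with TGZ, 295 with BSO plus TGZ, 450 with RGZ and 552 with BSO plus RGZ, against 335 with vehicle. The TGZ pools were below vehicle and the RGZ pools above it, which gave Yars the widest spread of the cytosolic set, 1.97-fold from the lowest to the highest pool. BSO plus RGZ was 1.65-fold above vehicle, with an interval of 1.25 to 2.17.

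Rars, the arginyl enzyme of the multisynthetase complex, was also below vehicle in the TGZ pools and above it in the RGZ pools. It read 934 with TGZ, 864 with BSO plus TGZ, 1272 with RGZ and 1593 with BSO plus RGZ, against 1000 with vehicle (chr11:35621903-35621962, mm9, minus strand). For Yars and Rars alike the intervals of both TGZ pools against vehicle included no change. A dimmer Rars probe was above vehicle in the TGZ pools, at 51.0 and 54.6 against 47.9. Another was below it, at 32.9 and 35.1 against 40.6. Farsb, the beta subunit of the phenylalanyl enzyme, read 536 with TGZ, 558 with BSO plus TGZ, 679 with RGZ and 841 with BSO plus RGZ, against 526 with vehicle. Its partner subunit Farsa had its highest signal in the same pool, at 0.55 against vehicle. Wars, the tryptophanyl enzyme and an interferon-responsive gene, read 1699 with TGZ, 1725 with BSO plus TGZ, 1827 with RGZ and 2513 with BSO plus RGZ, against 1577 with vehicle. For Wars only BSO plus RGZ stood clear of the rest.

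The enzymes of the multisynthetase complex and those outside it had medians close to each other in this pool. The 8 complex members had a median of 0.38 with 7 above 0, and the 12 others a median of 0.33 with 9 above 0. The complex scaffold genes were also above vehicle, with Aimp1 at 0.35, Aimp2 at 0.56 and Eef1e1 at 0.57. Eef1e1 was above vehicle in the TGZ pools too, at 0.99 and 0.83, where Aimp1 and Aimp2 lay between -0.04 and 0.11. The 10 class I enzymes had a median of 0.43 and the 10 class II enzymes of 0.18, and with RGZ alone 0.22 and -0.02. These subgroup medians rest on few genes and their differences were not tested.

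Gars and Kars, which also supply mitochondria, varied little. Gars read 4069 with TGZ, 3846 with BSO plus TGZ, 3795 with RGZ and 4065 with BSO plus RGZ, against 4070 with vehicle. Its 1.07-fold spread was the narrowest of all 35 genes. Kars stayed between 627 and 739 over the 5 pools. By its representing probe Iars2, at 1.14-fold, was the steadiest of the mitochondrial enzymes. Its dimmer probes varied more, 1 of them from 8.03 with BSO plus RGZ to 19.7 with RGZ and another from 7.77 to 16.8 in the same pools.

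By the representing probes, BSO added on top of a compound moved no synthetase by 1.5-fold. Of all genes 8.65% moved that far on top of TGZ and 7.09% on top of RGZ. Some dim further probes did move that far. For BSO plus RGZ against RGZ, dim Iars2 probes differed by -1.29, by -1.11 and by 0.60. The second Pars2 probe read 12.6 with BSO plus RGZ, against 5.5 with RGZ. The cytosolic median was -0.02 for BSO plus TGZ against TGZ, with 9 of 20 above 0, beside 46% of all genes (0.25 with spike-in scaling, beside 0.24 over all genes). It was 0.22 for BSO plus RGZ against RGZ, with 17 of 20 above 0, beside 49.6% of all genes. The largest of these was Wars at 0.46, 1.38-fold with an interval of 1.04 to 1.82, and the lowest was Cars, the cysteinyl enzyme, at -0.17. Only Wars had an interval clear of 0 among the 20, beside 4.33% of all genes above 0.

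On top of TGZ the extremes were mitochondrial. Aars2 was 1.38-fold higher with BSO plus TGZ than with TGZ, at 0.46. Nars2 read 36.5 with BSO plus TGZ, against 50.9 with TGZ, a difference of -0.48. The mitochondrial medians were 0.06 for BSO on top of TGZ and -0.02 on top of RGZ. The BSO differences on the TGZ and on the RGZ background share no array, and across the 20 cytosolic genes they had a Pearson correlation of -0.25, across the 15 mitochondrial genes of -0.26 and across 19991 genes of -0.01. The points share the scaling of each array, and the correlations are given as a description.

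TGZ and RGZ were compared at the same dose and time in 2 pairs of pools, without BSO and with it. Without BSO, 15 of 20 cytosolic and 12 of 15 mitochondrial synthetases were lower with TGZ than with RGZ, beside 45.5% of all genes. The medians were -0.21 and -0.31, beside 0.07 over all genes. With BSO, 18 of 20 and 12 of 15 were lower, beside 46.7% of all genes, with medians of -0.43 and -0.25 beside 0.04. By the representing probes no synthetase reached 2-fold between the compounds, where 18% of all genes did so without BSO and 13.6% with it. That depends on the scaling, since 2 cytosolic synthetases were past 2-fold lower with BSO under median scaling. Under spike-in scaling 4 cytosolic and 7 mitochondrial genes were past 2-fold lower without BSO, and 3 and 2 with it. The median of all genes also moved down under spike-in scaling. Shares of all genes past 2-fold are not given for either alternative, so these counts do not set the synthetases apart.

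Mars and Yars among the 20 cytosolic genes, and Lars2, Pars2 and Rars2 among the 15 mitochondrial genes, were lower by at least 1.5-fold under TGZ than under RGZ, beside 17.3% of all genes. With BSO they were Farsb, Mars, Nars, Rars and Yars, and Ears2 and Pars2, beside 14.1% of all genes. Mars, the methionyl enzyme, read 213 with TGZ and 364 with RGZ, and 246 with BSO plus TGZ and 369 with BSO plus RGZ. Vehicle lay between the compounds at 280. Yars differed by -0.68 without BSO and by -0.91 with it. With BSO that was 1.87-fold, with an interval of 1.42 to 2.47. Averaging the Yars probes, of which 2 more are dim, gave -0.26 and -0.37.

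Rars2, the mitochondrial arginyl enzyme, read 347 with TGZ and 623 with RGZ, and 418 with BSO plus TGZ and 604 with BSO plus RGZ. Vehicle was again between, at 487, by this representing probe. A dimmer Rars2 probe also had vehicle between the compounds, at 104, and another had vehicle above every treated pool, at 111. Pars2, the prolyl enzyme, read 164 with TGZ and 270 with RGZ, and 178 with BSO plus TGZ and 300.2 with BSO plus RGZ, with vehicle at 203. The averaging of both Pars2 probes gave 0.48 without BSO in place of -0.72, through a dim second probe above background on 4 arrays. Ears2, the glutamyl enzyme, differed by -0.51 without BSO and by -0.77 with it, and by -0.29 with BSO when its probes were averaged.

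Between the compounds Sars was the only synthetase higher with TGZ beyond its measurement interval, at 0.45 (24.4% of all genes were so), and with BSO it was at -0.09. Gars differed by 1.07-fold higher with TGZ without BSO, with an interval from 0.81 to 1.41, and by 1.06-fold lower with BSO, with an interval from 0.80 to 1.39. Wars2 differed by 1.01-fold and 1.11-fold, with intervals from 0.76 to 1.34 and from 0.83 to 1.47. Differences smaller than those bounds could not be read between the compounds for these genes.

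**Figure D3:**
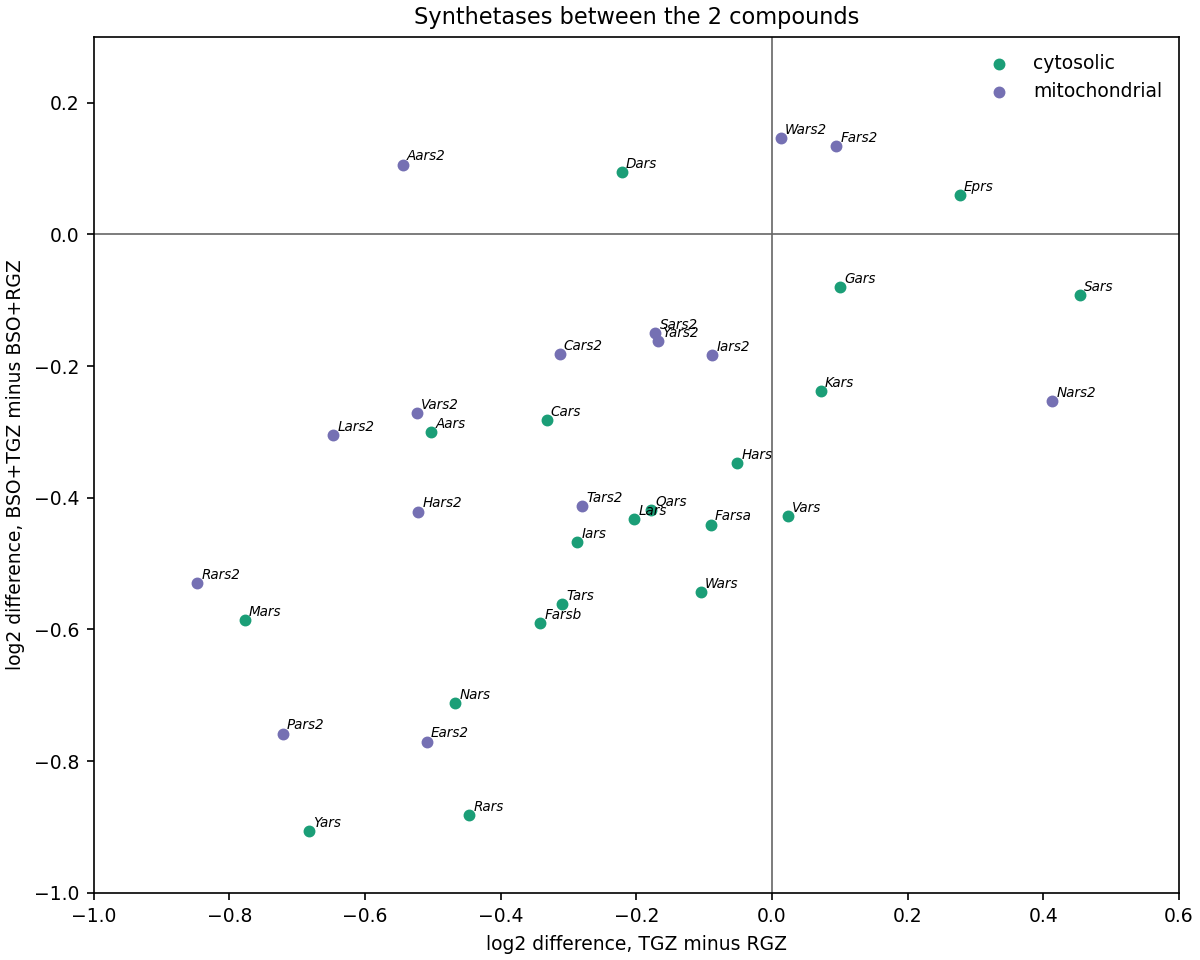
Log2 difference between the compounds for each synthetase, TGZ minus RGZ on the horizontal axis and BSO plus TGZ minus BSO plus RGZ on the vertical axis, with cytosolic genes in green and mitochondrial genes in purple. Points left of and below the lines at 0 are lower with TGZ. Of 20 cytosolic genes 14 and of 15 mitochondrial genes 11 lie in the lower left field, with Yars at -0.68 and -0.91.

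The 2 comparisons of the compounds share no array. Below 0 in both were 14 of 20 cytosolic and 11 of 15 mitochondrial genes, and 7524 of 20562 genes overall. Pearson's r was 0.69 across the cytosolic genes (Spearman 0.68), 0.56 across the mitochondrial genes (Spearman 0.60) and 0.86 across all genes. As above these are descriptions across genes, which are not independent replicates.

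Cytosolic and mitochondrial enzymes for the same amino acid had differences of the same sign in 9 of 15 pairs with TGZ, 8 with BSO plus TGZ, 7 with RGZ and 8 with BSO plus RGZ. Both signs were thus about equally common. The 15 pairs hold Fars2 with Farsa and again with Farsb, and Eprs with Ears2 only, so Pars2 is in no pair. Signs of values close to 0 are counted too, such as Fars2 at -0.0018 with TGZ. With BSO plus RGZ, Farsb was at 0.68 and Farsa at 0.55, where the mitochondrial phenylalanyl enzyme Fars2 was at -0.29. With TGZ, Eprs, the joint glutamyl and prolyl enzyme, was at 0.27, where Ears2 was at -0.41 and Pars2 at -0.31. Hars and Hars2, neighbouring histidyl genes whose RefSeq spans on GRCm38.p6 share 4 bases and whose probes read opposite strands, were at -0.04 and -0.54 with TGZ, the same sign.

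ATF4 and its targets outside the synthetase family are set beside the synthetases here. Of 22 measured genes of ATF4 and its amino acid response, 12 were past 2-fold above vehicle with TGZ (median 1.08), beside 10.1% of all genes. With BSO plus TGZ 9 were at least 2-fold higher (median 0.63), beside 8.32% of all genes. Below 0 were 5 of the 22 with TGZ and 6 with BSO plus TGZ, beside 48.9% and 52.3% of all genes. The lowest was Psph, at -0.54 in both. Asns, asparagine synthetase, read 85.6 with TGZ, 87.2 with BSO plus TGZ, 27.1 with RGZ and 67.4 with BSO plus RGZ, against 16.2 with vehicle. The Atf4 message itself was higher by 1.49 with TGZ, by 1.16 with BSO plus TGZ, by 0.51 with RGZ and by 0.72 with BSO plus RGZ. Psat1, an enzyme of serine synthesis, was higher by 2.30 with TGZ and by 1.46 with BSO plus TGZ.

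In those same TGZ pools the 13 cytosolic synthetases commonly listed as ATF4 targets had a median of 0.00 with TGZ and -0.11 with BSO plus TGZ. The 7 others had medians of 0.02 and -0.10. In the RGZ pools 3 of the 22 response genes were at least 2-fold higher with RGZ, beside 1.66% of all genes, and 5 with BSO plus RGZ, beside 3.05%. Their median was 0.22 in both. In each RGZ pool 13 of the 22 were above 0 and 9 below, beside 45.5% and 45.8% of all genes above 0. The lowest was Cth, at -0.97 with RGZ and -1.58 with BSO plus RGZ. The listed synthetases then had medians of 0.14 and 0.36, and the 7 others of 0.23 and 0.46. The 5 synthetases whose promoters hold the ATF4 core lay between -0.77 (Aars) and 0.00 (Gars) with TGZ, and between -0.34 (Aars) and 0.72 (Yars) with BSO plus RGZ.

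**Figure D4:**
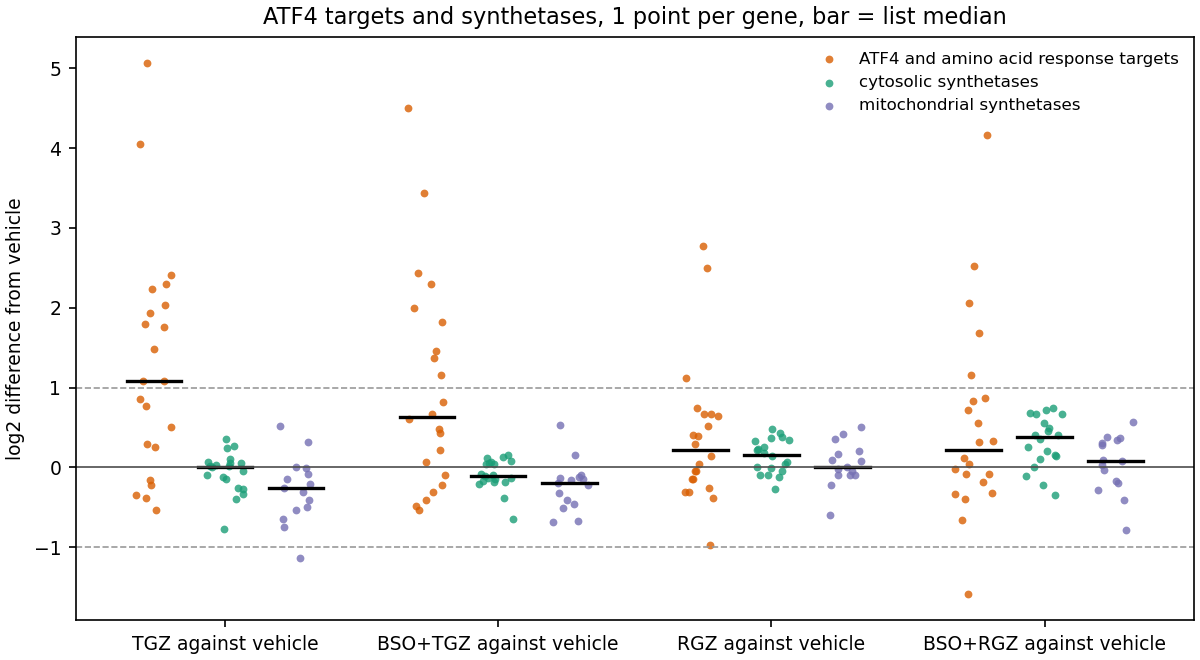
Log2 difference from vehicle of single genes in 3 lists, the 22 ATF4 and amino acid response targets (orange), the cytosolic synthetases (green) and the mitochondrial synthetases (purple), in the 4 treated pools. Black bars are list medians and dashed lines mark 2-fold. With TGZ the orange median is 1.08 and the green one 0.01, and with BSO plus RGZ they are 0.22 and 0.38.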

How the data were processed

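Total liver RNA, pooled by the authors from 6 animals per group, was labelled with Cy3 and hybridised to 1 Agilent array per group. The deposited array files hold a processed signal per spot, an intensity that Agilent Feature Extraction 12.0.3.1 corrected for background, per the file headers. The authors also deposited a table of log2 values, each equal to the log2 of that signal plus 1 constant per array. The medians of its columns were 4.01 (TGZ), 4.07 (BSO plus TGZ), 4.00 (RGZ), 3.92 (BSO plus RGZ) and 4.02 (vehicle), and genes were not centred. What scaled it was not given in the sources used here.

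Spots of a probe were averaged, log2 was taken and each array's 75th percentile was subtracted (Python 3.11.15, pandas 2.3.3, numpy 2.4.6). Each gene was represented by its brightest probe on average. A difference needed a signal well above background on at least 1 of the arrays compared. Counts were made at 2-fold and at 1.5-fold, beside the share of all genes past the same fold. With 1 array per group no test was run. No array was left out. The calculation was checked on simulated data. Alternatives were normexp background correction with an offset of 50 (limma 3.58.1 in R 4.3.3), other scalings, filters and probe rules, the deposited table, and subtraction of the median of all genes, which was added after seeing the data. Probe positions are mm9 per the file headers, and exon and UTR annotation was not used here. Promoters are RefSeq sequences of GRCm38.p6, and all 36 members matched the RefSeq gene table, 1 of them (Mars) through a synonym.

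Named genes are the members, plus genes of listed partners. Values on all 5 arrays are given for members past 2-fold and for most of those with the largest or smallest difference of a comparison. Cars, Dars, Eprs, Ears2 and Nars2 also held such extremes, and their values on all 5 arrays are not given in full. Further members with array values were named for reaching 1.5-fold. The members and lists were chosen with earlier results of these data known.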

Additional observations from a re-analysis of the deposited data

Results flagged for a closer look

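Secondary probes of 4 synthetases, which were not the probe that represents the gene, were flagged as past 2-fold higher than vehicle. A brighter secondary probe of Rars2, past 2-fold lower with BSO plus TGZ, is given under other observations. An Aars probe for another transcript (ENSMUST00000142770) read 10.9 with TGZ, 16.1 with BSO plus TGZ, 7.4 with RGZ and 10.2 with BSO plus RGZ, against 5.4 with vehicle, and differed by at least 1.53 with BSO plus TGZ (vehicle was not well above background), opposite in sign to the representing probe. A Farsa probe (ENSMUST00000144404) read 32.5 with TGZ, against 16.1 with vehicle, a log2 difference of 1.01. A Hars probe (AK077437) was past 2-fold with RGZ and with BSO plus RGZ, and differed by at least 1.63 in the BSO plus RGZ pool, where it read 17.3, against 4.0 with vehicle, which was not well above background. The second Pars2 probe (NM_001285783) differed by 1.13 with TGZ, reading 17.6 against 8.1 with vehicle, where the representing probe was at -0.31. Signals this dim lie near the lowest level called above background, and whether they reflect other transcripts was not tested.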

How the results depend on the processing

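No paired analysis was possible because each group has 1 array and no replicate. Of 160 recomputed list medians, 152 moved by less than the measurement SD, and the other 8 moved with spike-in scaling. That SD is the error of a single gene's difference and is larger than several of the list medians, so it is a coarse mark. The deposited table holds the same signal plus 1 constant per array, so it is not an independent check. With that scaling the cytosolic medians were -0.45 for TGZ against vehicle, 0.25 for BSO plus TGZ against TGZ, -0.76 for TGZ against RGZ and -0.75 for BSO plus TGZ against BSO plus RGZ. The mitochondrial medians were -0.72, 0.33, -0.86 and -0.57 for the same 4 comparisons, and the medians of all genes were -0.44, 0.24, -0.47 and -0.28. Averaging a gene's probes turned 3 values, Aars to 0.34 with TGZ and 0.43 with BSO plus TGZ against vehicle, and Pars2 to 0.48 between TGZ and RGZ, since the average holds dim probes of these genes. With normexp 0 mitochondrial synthetases were past 2-fold lower with TGZ, against 1 otherwise. Between the compounds, where none was past 2-fold, 2 cytosolic synthetases were past 2-fold lower with BSO under median scaling. Under spike-in scaling there were 4 cytosolic and 7 mitochondrial without BSO, and 3 and 2 with it, and against vehicle 1 and 3 were past 2-fold lower with TGZ. Averaging probes put 1 cytosolic gene past 2-fold higher with BSO plus RGZ. Shares of all genes past 2-fold under these alternatives are not given, so the counts do not set the synthetases apart. With no filter on dim probes Mars2 passed 2-fold in the BSO plus RGZ pool. The limits are 1 pooled array per group, no spread between animals, no BSO-only pool, and a dim range in which signals near background carry wide error.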

Other observations

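Other probes of the same genes gave a check of the representing probes that the list medians do not use. In the cytosolic set 18 further probes of 10 genes were above background on all 5 arrays, and their median difference from vehicle was 0.21 with TGZ, 0.11 with BSO plus TGZ, 0.27 with RGZ and 0.51 with BSO plus RGZ. In the mitochondrial set 22 further probes of 12 genes had medians of -0.20, -0.17, 0.07 and 0.10 in the same order of pools. Of the 18 cytosolic probes, 14 with TGZ, 13 with BSO plus TGZ, 15 with RGZ and 15 with BSO plus RGZ had the sign of the representing probe. Of the 22 mitochondrial probes, 16, 14, 13 and 15 did in the same order of pools. A further Rars2 probe (A_51_P422781) read 55.6 with TGZ, 51.7 with BSO plus TGZ, 89.9 with RGZ and 97.7 with BSO plus RGZ, against 111 with vehicle. It was 2.15-fold lower than vehicle with BSO plus TGZ, where the representing probe was at -0.22. An Aars probe (ENSMUST00000125268) overlaps the promoter window of its own gene by 52 bases in the sense direction.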
